A study of Canis lupus familiaris with 7 samples.

Results

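The genes described here handle iron in the cell: they take it up, store it, move it between compartments, release it from heme and export it. They were chosen by name, as the 10 symbols TFRC, TFR2, SLC11A1, SLC11A2, SLC40A1, FTH1, FTL, HMOX1, SLC25A37 and STEAP3. All 10 were found among the 24580 gene IDs of the expression table, where FTH1 and FTL each have a pair of gene IDs, so that 12 rows were described. RNAseq was performed on grossly non-malignant bone of dogs (non-tumor, n = 4, samples N1, N3, N8 and N9) and on osteosarcoma, a malignant bone tumor (OSA tumor, n = 3, samples T1, T3 and T10). The tissue was taken at amputation or directly after euthanasia, the non-tumor piece from beside a tumor, and the labels give neither treatment, breed nor age of the dogs. The protocol calls the non-tumor bone matched to the tumors, but does not say which samples share a dog; numbers 1 and 3 occur in both groups. The labels do not say that the samples of a group came from separate dogs, so p-values measure only the spread between these samples.

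Most cells obtain iron by binding iron-loaded transferrin to TFRC and taking it into endosomes, where STEAP3 reduces the ferric iron and SLC11A2 carries the ferrous iron into the cytosol. SLC25A37 then imports it into mitochondria for heme and iron-sulfur clusters, ferritin (heavy chain FTH1, light chain FTL) stores the excess, and SLC40A1 is the known exporter. Bone marrow holds the largest consumers of iron, the erythroblasts that make hemoglobin, and macrophages that recycle it from old red cells with HMOX1.

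Values are FPKM (fragments per kilobase of transcript and per 1e6 mapped fragments). No counts were analysed, so depth could be set only against that of N1, by the steps between low FPKM values: it was lowest in N8 (0.543) and highest in T10 (1.43). Across the 13507 genes tested, whose mean reached 1 FPKM, the log2 values of N1 had a Pearson correlation of 0.917 with T1. With the other non-tumor samples it was 0.572 to 0.670, so N1 was nearer to T1 than to its group. The other non-tumor samples were not uniform either, with 0.645 between N3 and N9 but 0.742 between N3 and T3. The values without N1 are given beside those of the 12 rows, the ratios and the called genes. The osteoblast marker list summed to 163 to 7474 FPKM in non-tumor samples, lowest in N8 and highest in N1, and to 1963 to 12783 FPKM in OSA tumor. The skeletal muscle list (16 of 18 symbols found) summed to 88.6 to 93940 FPKM in non-tumor samples, where N8 and N9 were highest, and to 5.82 to 17.3 FPKM in OSA tumor. In bulk samples of mixed tissue such as these, fewer cells of a type and less RNA per cell cannot be told apart.

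Erythroid markers, those of red cell precursors, were measured for 19 of 24 symbols and gave sums of 23.8 FPKM for N1, 3913 for N3, 6057 for N8 and 438 for N9, whereas T1 had 15.3, T3 46.2 and T10 117. Of them AHSP, the hemoglobin alpha chaperone, was at 1915 FPKM in N3 and 3202 in N8 but at 1.31 in N1 and 0.560 in T1, and of the erythroid markers CA1 was listed at 0 in N1 and T1, and TSPO2 in N1 and every tumor sample. The granulocyte list (9 of 13 symbols) ran from 310 FPKM in N1 to 22693 in N3 among non-tumor samples, with 17945 in N8 and 864 in N9, and from 47.8 to 794 FPKM in OSA tumor. The macrophage list (10 of 12 symbols) gave sums of 320.3 FPKM for N1, 1066 for N3, 973 for N8 and 82.5 for N9, and of 235 to 601 FPKM in OSA tumor. Proliferation genes (11 of 12 symbols) summed to 82.2 to 635 FPKM in non-tumor samples, lowest in N9, and to 259 to 616 FPKM in OSA tumor. Of the remaining lists, the osteoclast list (7 of 9 symbols) summed to 217 to 1683 FPKM in non-tumor samples and to 480 to 3518 FPKM in OSA tumor, and the adipocyte list (6 of 9 symbols) summed to 15.2 to 342 FPKM in non-tumor samples and to 11.3 to 15.6 FPKM in OSA tumor. N3 and N8 thus had the highest erythroid, granulocyte and macrophage sums, and no marker found was at 0 in all 7 samples.

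**Figure D1:**
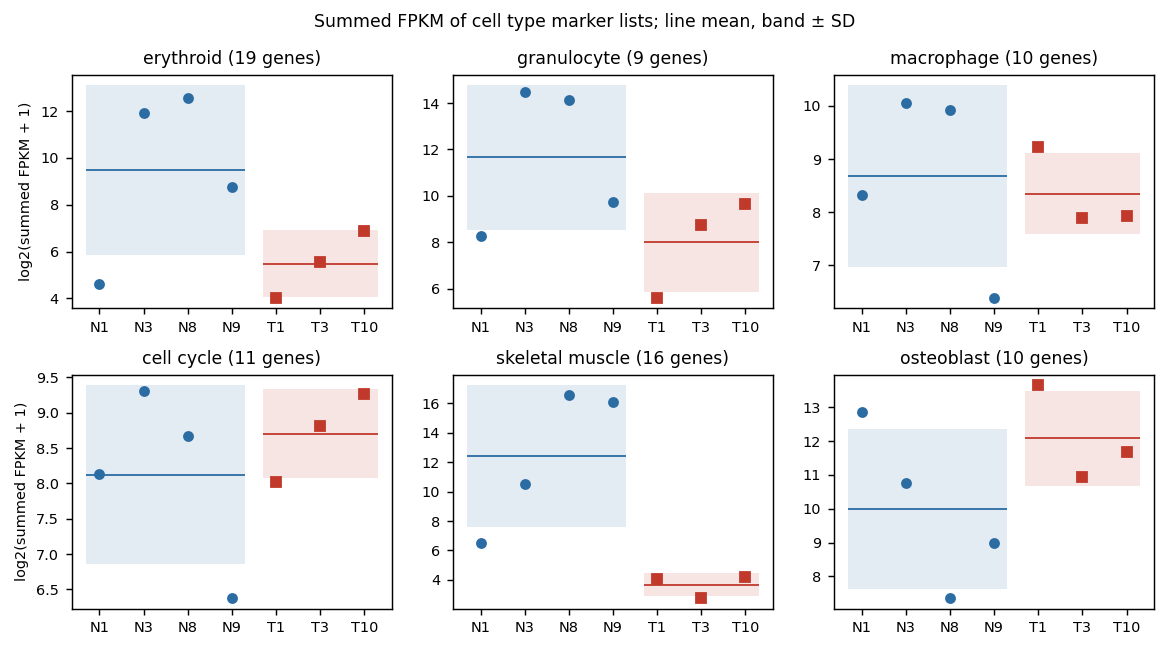
Summed FPKM of 6 marker lists in each sample, as log2(sum + 1), for non-tumor samples (circles) and OSA tumor samples (squares); lines are group means and bands ± SD on this scale. The erythroid and granulocyte lists were highest in N3 and N8, with N1 between the tumor samples in the erythroid panel, and the muscle list was highest in N8 and N9.

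N3 and N8 were also where most of the iron genes were highest. In 9 of the 12 rows these were the highest samples of the 7, an order seen in 8.65% of all genes tested, in 18 of the 19 erythroid, 8 of the 9 granulocyte and 6 of the 10 macrophage markers. The rows with another order were SLC11A2, STEAP3 and the FTH1 row on chromosome 18. The part that the mix of cells plays in this order was not tested. The order holds for FPKM as deposited, and it was not counted under other scalings. Total FPKM was unequal between samples, lowest in N1 (539648) and highest in N8 (1.75e+06). Ranked among all gene IDs of each sample, the FTL row on chromosome 23 stood at 134 in N8, behind N1 (107) and T1 (95). The other rows with this order kept N3 and N8 foremost by rank. By limma on log2(FPKM + 1), 1 of the 12 rows, SLC25A37, met both limits, a 2-fold difference and p below 0.05 before adjustment, and it was lower in OSA tumor. Among all genes tested, 3.58% were called lower and 3.28% higher by these limits, so that a count of 1 in 12 is not read as a result about the group, and 0 rows were called higher. Adjusted over all genes, 0 rows reached a p under 0.05, with 1 under 0.05 unadjusted, and the smallest adjusted p was 0.693. The log2 fold changes of the 12 rows all lay below 0 as deposited, from -2.60 to -0.12 with a median of -0.71, beside -0.02 over all genes tested; the FTL row on chromosome 23 lay above 0 under some other scalings. The groups overlapped in all 12 rows, where 5.85% of all genes tested had groups that did not overlap. Without N1, 4 rows were called lower (SLC25A37, SLC40A1, SLC11A2 and TFR2, of which TFR2 had passed the filter only through its high samples N3 and N8), with 8.48% of all genes tested called lower in that fit. Between the samples that share a number, T1 exceeded N1 in 9 of the 12 rows, by at most 0.52 on the log2(FPKM + 1) scale. T3 lay below N3 in 12 of 12. The share of all genes with these directions was not counted, so neither count is read as a result about the rows.

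**Figure D2:**
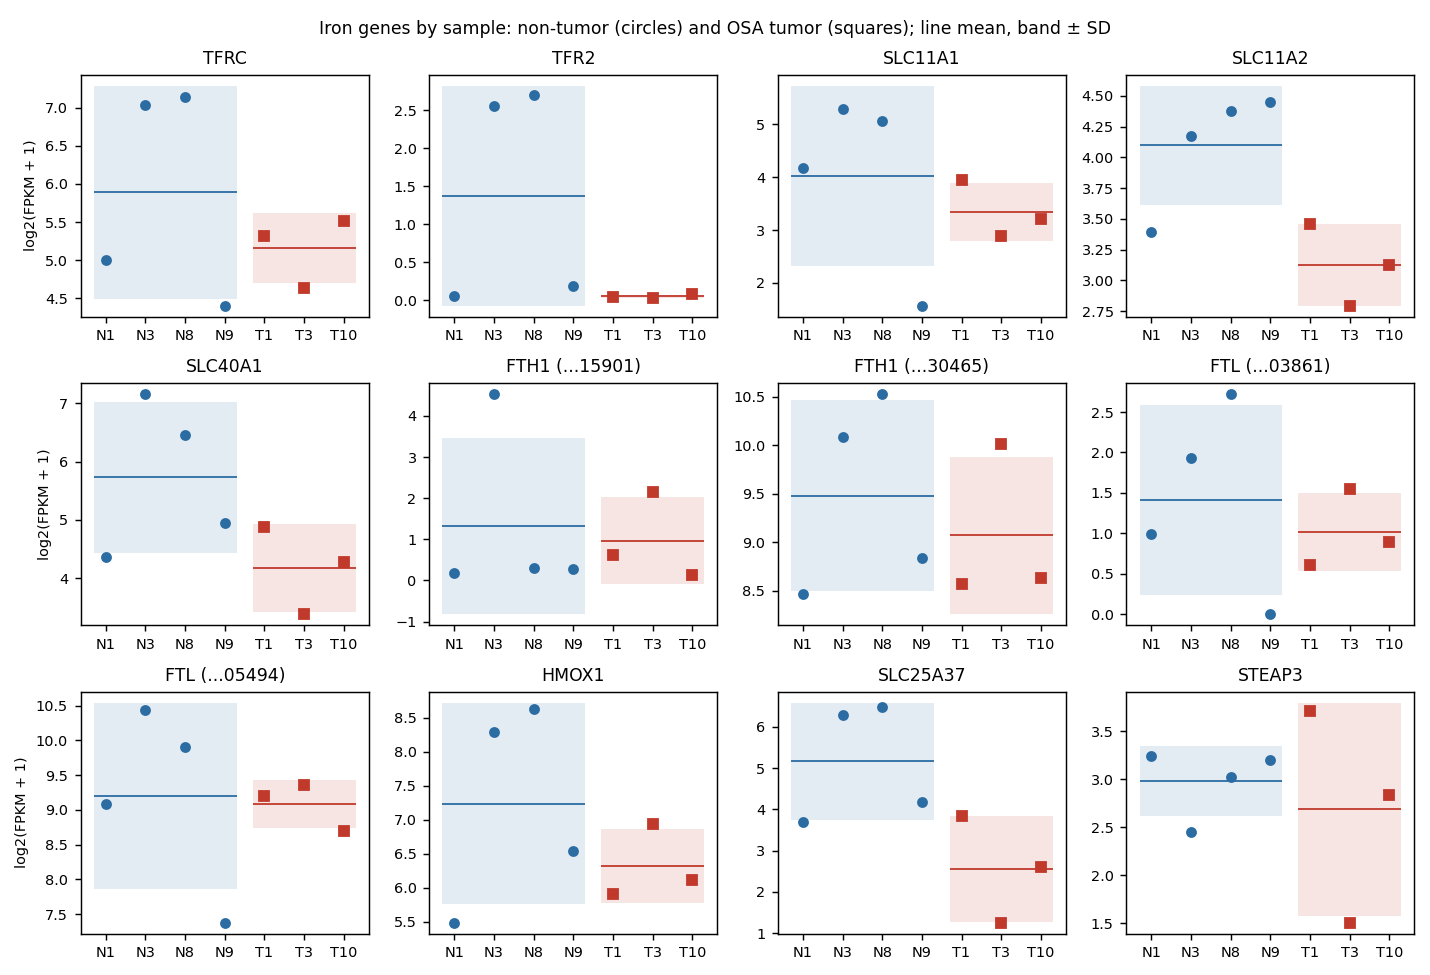
Level of each of the 12 iron gene rows in each sample, as log2(FPKM + 1), for non-tumor samples (circles) and OSA tumor samples (squares); lines are group means and bands ± SD on this scale, and each panel has its own axis. In 9 panels N3 and N8 were the highest samples, while N1 and N9 lay near or among the tumor samples in most of them.

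TFRC (ENSCAFG00000012941, CanFam3.1 chromosome 33 from 29206003 to 29231090) encodes the receptor through which nearly all dividing cells take up transferrin-bound iron. It measured 31.0 FPKM for N1, 129.9 for N3, 140.1 for N8 and 20.1 for N9, whereas T1 had 38.9, T3 23.8 and T10 44.6. N3 and N8 were several-fold above the other 5 samples, and the tumor samples lay between N9 and N3. Non-tumor samples averaged 80.3 ± 63.5 FPKM (SD, n = 4) and tumors 35.8 ± 10.7 FPKM (SD, n = 3), and N3 and N8 held 84.1% of the non-tumor sum. The log2 fold change was -0.74 (standard error, SE, 0.74) and did not pass; its 95% confidence interval, from -2.41 to 0.93, holds both a fall of more than 2-fold and no change. It was -1.04 without N1. With 1 sample left out it stayed between -1.24 (without N9) and -0.32 (without N8) and was called in 0 of 7 fits.

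TFR2 (ENSCAFG00000014311, chromosome 6 from 9059495 to 9078229), a second transferrin receptor known from liver and erythroid precursors, where it senses iron rather than supplying it, was split sharply between samples. It was at 4.87 FPKM in N3 and 5.50 in N8, but at 0.0396 in N1 and 0.140 in N9. Among the tumors T1 had 0.0281 FPKM, T3 0.0212 and T10 0.0546. These 5 values are close to 0 beside those of N3 and N8, and no order among them is read. TFR2 passed the filter on low values only through N3 and N8, which held 98.3% of the non-tumor sum. Since it passed by the group in which it is high, its log2 fold change of -1.33 (SE 0.78), or -1.77 without N1 and -0.88 without N8, is given as a description. It depends on the pseudocount, with -2.88 at 0.1 and -3.98 at 0.01.

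STEAP3 (ENSCAFG00000004901, chromosome 19 from 30748435 to 30795313), the endosomal ferrireductase, did not share the order of the receptors. It measured 8.49 FPKM for N1, 4.47 for N3, 7.14 for N8 and 8.18 for N9, with N3 the lowest of its group. Among the tumors T1 had 12.1 FPKM, the highest of the 7 samples, T3 1.84, the lowest, and T10 6.16. The tumor samples thus enclosed the whole non-tumor range. The log2 fold change of -0.29 (SE 0.59) did not pass, and was -0.21 without N1 and 0.30 without T3.

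SLC11A2 (ENSCAFG00000007902, chromosome 27 from 3790060 to 3822762), the ferrous iron transporter of endosomes and the gut also called DMT1, measured 9.50 FPKM for N1, 17.0 for N3, 19.8 for N8 and 20.9 for N9. T1 had 9.97 FPKM, T3 5.94 and T10 7.73. N1 alone among the non-tumor samples lay within the tumor range, and N9 was as high as N3 and N8. The skeletal muscle sum, also highest in N8 and N9, was 88.6 FPKM for N1, 1435 for N3, 93940 for N8 and 69240 for N9, and its part in these levels was not tested. The means were 16.8 ± 5.13 FPKM (SD, n = 4) and 7.88 ± 2.02 FPKM (SD, n = 3). The log2 fold change of -0.97 (SE 0.46, limma, unadjusted p = 0.0634, two-sided exact permutation p = 0.114) just missed both limits. Without N1 it was -1.21 and called (unadjusted p = 0.0311), and over the 7 fits without 1 sample it kept between -1.21 and -0.81, the narrowest range of the 12 rows by these fits.

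SLC11A1 (ENSCAFG00000014645, chromosome 37 from 25038419 to 25047084), its relative in the phagosomes of macrophages and neutrophils, also called NRAMP1, measured 17.0 FPKM for N1, 38.3 for N3, 32.4 for N8 and 1.97 for N9. Among the tumors T1 had 14.5 FPKM, T3 6.36 and T10 8.19. N9 was the lowest of all samples and N3 and N8 the highest, as in the macrophage list. It had a log2 fold change of -0.68 (SE 0.86). Without N9 it was -1.50 and called (unadjusted p = 0.0228), and it was not called without N1 (-0.63), N3 (-0.26), N8 (-0.33) or any 1 tumor sample (-0.98 to -0.45).

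SLC25A37 (ENSCAFG00000009114, chromosome 25 from 33894132 to 33965389) encodes mitoferrin-1, which supplies mitochondria with iron and is known as the form on which erythroblasts depend. It measured 11.97 FPKM for N1, 77.0 for N3, 88.4 for N8 and 17.1 for N9, whereas T1 had 13.2, T3 1.38 and T10 5.08. T3 was lowest, and T1 lay above N1, so the groups overlapped by that pair alone. Non-tumor samples averaged 48.6 ± 39.7 FPKM (SD, n = 4) and tumors 6.56 ± 6.06 FPKM (SD, n = 3). The log2 fold change was -2.60 (SE 0.86, 95% confidence interval from -4.54 to -0.66, unadjusted p = 0.0139 and adjusted p = 0.693 from limma). The two-sided exact permutation test over the 35 splits gave p = 0.114, where 0.0571 is the smallest p the design allows. The call held in 6 of 7 fits without 1 sample, with -3.09 without N1, and was lost without T3 (-1.94, unadjusted p = 0.0743) and with the sample number as a fixed block (-2.45, unadjusted p = 0.153). The summed erythroid markers were likewise highest in N3 and N8, with 23.8 to 6057 FPKM in non-tumor samples and 15.3 to 117 FPKM in OSA tumor. Among the tumors their order differed, with T1 lowest (15.3 FPKM) and T10 highest (117). N1 (23.8) lay below T3 (46.2) in this sum. The part of these markers in the difference was not tested.

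SLC40A1 (ENSCAFG00000009343, chromosome 37 from 307951 to 328759) encodes ferroportin, through which macrophages and erythroid precursors release iron. It measured 19.6 FPKM for N1, 142 for N3, 86.7 for N8 and 29.9 for N9, whereas T1 had 28.5, T3 9.40 and T10 18.4. N3 and N8 stood above the rest, and N1 lay between T10 and T1. The means were 69.5 ± 56.6 FPKM (SD, n = 4) and 18.8 ± 9.55 FPKM (SD, n = 3). Its log2 fold change of -1.55 (SE 0.74) passed the fold limit and missed the other (limma, unadjusted p = 0.0630). It was called at -2.01 without N1 (unadjusted p = 0.0192) and at -1.81 without N9 (unadjusted p = 0.0487), and was lowest in size without N3 (-1.08).

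HMOX1 (ENSCAFG00000001711, chromosome 10 from 28743753 to 28752012), the inducible heme oxygenase that opens the heme ring and frees its iron, measured 43.8 FPKM for N1, 313 for N3, 395 for N8 and 92.4 for N9. Among the tumors T1 had 59.3 FPKM, T3 122 and T10 68.2. T3 was the highest tumor sample and lay above N1 and N9. By rank among all gene IDs of a sample it stood at 219 in N3 and 284 in N8, and between 737 and 1518 in the other 5 samples. HMOX1 had a log2 difference of -0.92 (SE 0.80, limma, unadjusted p = 0.277), and -1.50 without N1, which missed the p limit as well (unadjusted p = 0.0586). It was nearer 0 without N8 (-0.45) or N3 (-0.56). The erythroid, granulocyte and macrophage sums were likewise highest in N3 and N8, and their part in these levels was not tested.

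**Figure D3:**
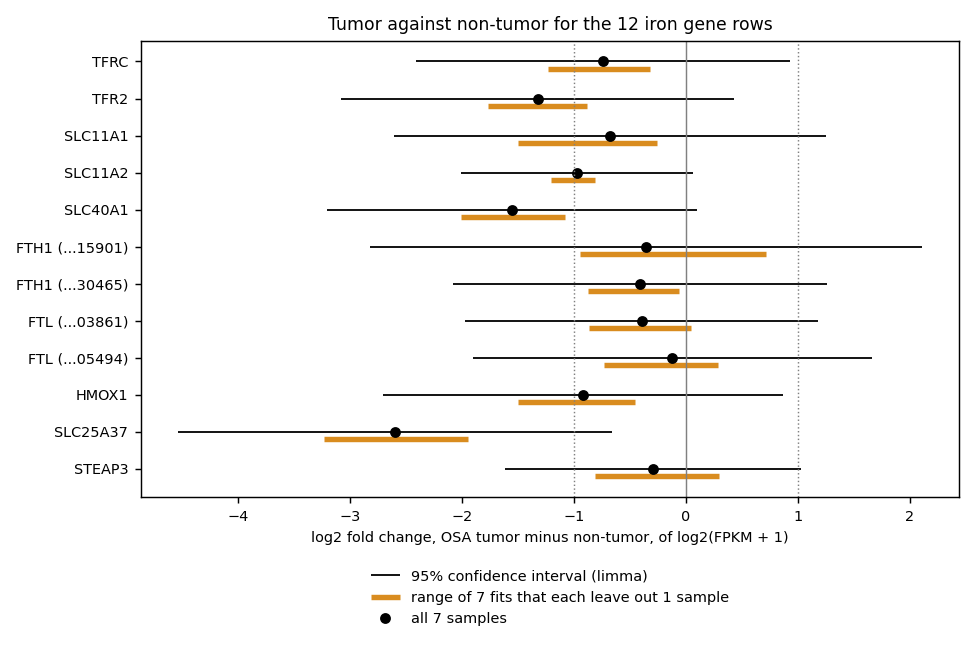
Log2 fold change of OSA tumor against non-tumor samples for the 12 iron gene rows (points), with the 95% confidence interval from limma (black lines) and the range of the 7 fits that each left out 1 sample (orange bars); dotted lines mark a fold change of 2. Only the interval of SLC25A37 lies wholly below 0, and the widest range belongs to the FTH1 row on chromosome 18.

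Ferritin transcripts were the most abundant of the group in every sample, and FPKM, which are per length, allow this comparison between genes. The 4 ferritin rows made up from 75.9% (N8) to 90.8% (T3) of the summed FPKM of the 12 rows. Nearly all of it lay in 1 gene ID per chain. For FTH1 this was ENSCAFG00000030465, a short interval of 822 bp on chromosome 11 from 39037349 to 39038170, which held 98.01% to 99.98% of the FPKM under that symbol. For FTL it was ENSCAFG00000005494, of 528 bp on chromosome 23 from 16294614 to 16295141, with 99.4% of the symbol's FPKM or more. The other FTH1 row (ENSCAFG00000015901, 2442 bp on chromosome 18 from 54466190 to 54468631) and the other FTL row (ENSCAFG00000003861, 1095 bp on chromosome 1 from 107418623 to 107419717) were low. Mammalian genomes hold many near-identical ferritin copies, and how reads that match several copies were shared out is not given in the sources used here. The sequences of these copies were not compared here, so which copy was transcribed is uncertain.

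The FTH1 row on chromosome 11 measured 354 FPKM for N1, 1088 for N3, 1473 for N8 and 455 for N9. Among the tumors T1 had 380.1 FPKM, T3 1028 and T10 396. T3 reached the level of N3, while the other tumor samples lay between N1 and N9. It ranked between 71 and 241 among all gene IDs of each sample. The log2 fold change was -0.41 (SE 0.74, 95% confidence interval from -2.08 to 1.26, limma, unadjusted p = 0.595). It was -0.75 without N1, and with 1 sample left out it ran from -0.88 (without T3) to -0.06 (without N8).

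The FTL row on chromosome 23 measured 542 FPKM for N1, 1391 for N3, 962 for N8 and 165 for N9, whereas T1 had 588, T3 653 and T10 412. The tumor samples lay close together, inside a wide non-tumor range set by N9 and N3. Its log2 fold change of -0.12 (SE 0.79) did not pass and had no stable direction: it was 0.075 once all samples were brought to an equal FPKM sum, 0.18 with quantile normalization, 0.29 without N3 and -0.16 without N1. That rescaling moved the median log2 fold change of all genes tested from -0.02 to 0.12.

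Of the low ferritin rows, that of FTH1 had an order of its own and that of FTL did not. The FTH1 row on chromosome 18 was at 22.1 FPKM in N3 and 3.45 in T3, and between 0.0915 and 0.538 in the other 5 samples. It passed the filter through N3 above all, and its log2 fold change of -0.35 (SE 1.10) became 0.72 without N3 and -0.74 without N1. The FTL row on chromosome 1 was at 0.982 FPKM in N1, 2.82 in N3 and 5.60 in N8 and listed at 0 in N9, and at 0.527 in T1, 1.93 in T3 and 0.850 in T10. N3 and N8 were its highest samples and N9 its lowest, as in the row on chromosome 23. Its log2 fold change was -0.39 (SE 0.70) and -0.54 without N1, and turned to 0.61 with a pseudocount of 0.01.

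Within a sample, the balance of uptake and export was read as the log2 ratio of TFRC to SLC40A1, and that of the ferritin chains as the log2 ratio of FTH1 to FTL. The ratio of TFRC to SLC40A1 was 0.63 for N1, -0.13 for N3, 0.69 for N8 and -0.55 for N9, whereas T1 had 0.44, T3 1.26 and T10 1.23. T3 and T10 lay above every non-tumor sample, while T1 lay below N1 and N8. Non-tumor samples averaged 0.16 ± 0.60 (SD, n = 4) and tumors 0.98 ± 0.47 (SD, n = 3), a difference of 0.81 (0.97 without N1) with a two-sided exact permutation p of 0.171. N3 and N8, highest in both genes, did not share a side in this ratio. The ratio of FTH1 to FTL, over all gene IDs of each symbol, ran from -0.62 in N1 to 1.46 in N9, with -0.33 in N3 and 0.61 in N8. In OSA tumor it was -0.63 in T1, 0.65 in T3 and -0.06 in T10. The difference of -0.29 was small beside the spread in either group (two-sided exact permutation p = 0.743). It was -0.59 without N1 and 0.10 without N9.

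**Figure D4:**
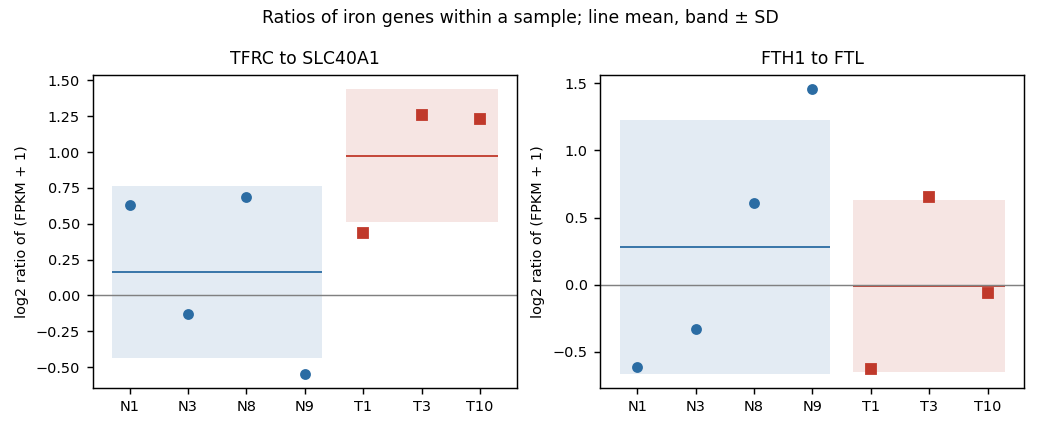
Log2 ratio of TFRC to SLC40A1 (left) and of FTH1 to FTL (right) in each sample, from FPKM + 1, for non-tumor samples (circles) and OSA tumor samples (squares); lines are means and bands ± SD. In the left panel T3 (1.26) and T10 (1.23) lie above all non-tumor samples, and in the right panel T1 (-0.63), T3 (0.65) and T10 (-0.06) lie near N1, N3 and N8, with N9 (1.46) above all others.

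The genes whose levels ran most alike with each row were named by the Pearson correlation of log2(FPKM + 1) over the 7 samples, as a description. For TFR2 they were FAM151A, TSPO2 and CSRP3 (0.999 to 0.997), of which TSPO2 is an erythroid gene and CSRP3 a striated muscle gene. For SLC25A37 they were TPRA1, MFNG and TTC38 (0.997 to 0.988), for SLC40A1 KLHL6, EHD3 and MSRA (0.984 to 0.979), and for HMOX1 TCN1, GCH1 and the row named BCL-XL (0.990 to 0.980). For STEAP3 they were EHD2, LETM1 and CNNM3 (0.988 to 0.977). With 7 points, among which N3 and N8 lie apart, such values are common: between 38 and 396 genes had a correlation above 0.9 with each of the 12 rows.

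A wider set of iron genes was taken from 7 lists, with 56 gene IDs found and 51 tested. Of these, 4 were called lower and 2 higher in OSA tumor, beside 3.58% lower and 3.28% higher among all genes tested. Their median log2 fold change was -0.14. HFE2, among the 4, passed the filter only through N3, N8 and N9. These counts are not read as a result about the set, and 0 had an adjusted p under 0.05 by limma where 6 had an unadjusted p under 0.05. Lists of iron oxidoreductases (0 of 5 called), zinc-iron transporters (0 of 2), iron regulatory proteins and ferritin turnover (0 of 8) and mitochondrial iron and iron-sulfur cluster genes (0 of 13) held no call. In the list of mitochondrial iron and iron-sulfur cluster genes 11 of 13 log2 fold changes were below 0, with a median of -0.68. All genes tested had 6946 of 13507 below 0 and a median of -0.02. The muscle sum was highest in N8 and N9 and the erythroid sum in N3 and N8, and their part in these values was not tested. Systemic iron regulation held 1 gene called higher and 1 called lower (HFE2) of 7 tested. Heme transport and breakdown held 2 called lower of 12, and iron-scavenging proteins 1 in each direction of 4.

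Of the called genes, LTF, the iron-binding lactoferrin of neutrophil granules (ENSCAFG00000013763), differed most. It measured 33.5 FPKM for N1, 2619 for N3, 1586 for N8 and 89.0 for N9, whereas T1 had 0.180, T3 14.5 and T10 3.92, and the groups did not overlap. LTF had a log2 difference of -6.23 (SE 1.53, limma, unadjusted p = 0.00260), called in 7 of 7 fits without 1 sample, with -7.33 without N1. The summed granulocyte markers, listed apart from it, were likewise highest in N3 and N8. They gave 310 to 22693 FPKM in non-tumor samples and 47.8 to 794 FPKM in OSA tumor. In this sum T3 (426) and T10 (794) lay above N1 (310), and T10 rather than T3 was the highest tumor sample. The part of these markers in the difference was not tested.

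HP, the plasma scavenger of free hemoglobin (ENSCAFG00000020220), measured 17.0 FPKM for N1, 132 for N3, 172 for N8 and 68.8 for N9, whereas T1 had 0.576, T3 22.4 and T10 2.24. T3 lay above N1, the only overlap. HP had a log2 difference of -3.90 (SE 1.03), called in 7 of 7 fits without 1 sample, with -4.57 without N1. Its highest samples, N3 and N8, were also those of the erythroid, granulocyte and macrophage sums, whose part in the difference was not tested. SLC48A1, which moves heme out of the phagolysosome (ENSCAFG00000009167), measured 6.25 FPKM for N1, 20.4 for N3, 38.9 for N8 and 40.0 for N9. Among the tumors T1 had 8.58 FPKM, T3 8.10 and T10 3.26. N8 and N9 were highest, as in the muscle sum, whose part in the difference was not tested. SLC48A1 had a log2 fold change of -1.64 (SE 0.68), and -2.19 without N1. Its call was lost without N3 (-1.67), N8 (-1.37), N9 (-1.35), T1 (-1.85), T3 (-1.81) or T10 (-1.27), with samples rescaled to the same sum (-1.47), and with the sample number as a fixed (-0.42) or random block (-1.23).

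HFE2, the hemojuvelin gene that raises hepcidin in liver and is also strongly expressed in skeletal muscle (ENSCAFG00000011418), measured 0.425 FPKM for N1, 5.61 for N3, 43.6 for N8 and 147 for N9. Among the tumors T1 had 0.170 FPKM, T3 0.216 and T10 0.0746, so the groups did not overlap. HFE2 passed the filter only through N3, N8 and N9, and its log2 fold change of -3.78 (SE 1.35), or -4.93 without N1, is given as a description. It was highest in N8 and N9, as was the muscle list by its sum, and the part of muscle in this difference was not tested. The call was lost without N8 (-3.28), T1 (-3.79), T3 (-3.81) or T10 (-3.73), and with the sample number as a fixed block (-1.36). Hepcidin itself (HAMP) fell below the filter, with 0.206 FPKM in N3 as its highest value and 0 listed in N1, N8, N9 and T10.

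Higher in OSA tumor were BMP2, a bone morphogenetic protein that also induces hepcidin (ENSCAFG00000031497), and SLC22A17, a receptor for the siderophore binder LCN2 (ENSCAFG00000025390). BMP2 measured 4.31 FPKM for N1, 7.69 for N3, 1.52 for N8 and 2.15 for N9, whereas T1 had 10.5, T3 11.2 and T10 15.6. Every tumor sample lay above every non-tumor sample (log2 fold change 1.60, SE 0.54, limma, unadjusted p = 0.0159; 1.69 without N1). The call was lost without T10 (1.43), with samples rescaled to the same sum (1.70) and with the sample number as a fixed block (0.80). N1 stood out for SLC22A17 with 93.6 FPKM, where N3 had 8.25, N8 8.06 and N9 4.76. T1 had 122 FPKM, T3 57.8 and T10 34.9, and N1 lay among the tumor samples. The osteoblast sum was also high in N1 (7474 FPKM) and T1 (12783), with 1963 in T3 and 3250 in T10, against 1730.04 in N3, 163 in N8 and 510.1 in N9; its part in the difference was not tested. The SLC22A17 log2 fold change of 2.13 (SE 0.94) was called in 1 of 7 fits without 1 sample, the one without N1 (3.02), and lay as low as 1.65 in the others. It was also lost without the filter (2.13), with quantile normalization (2.14), without the trend (2.13) and with the fixed block (1.52).

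In lists without a call, the gene with the largest log2 fold change in size was ceruloplasmin CP, the plasma ferroxidase, at -1.39 (SE 1.45), SLC39A14 at 0.60, EPAS1, a hypoxia-inducible factor, at -1.23 and ISCA1, of iron-sulfur cluster assembly, at -1.42; EPAS1 and ISCA1 were called lower without N1. CP was at 133 FPKM in N3 and 98.6 in T3, 59.5 in N8, and from 0.609 to 7.89 in the other 4 samples.

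**Figure D5:**
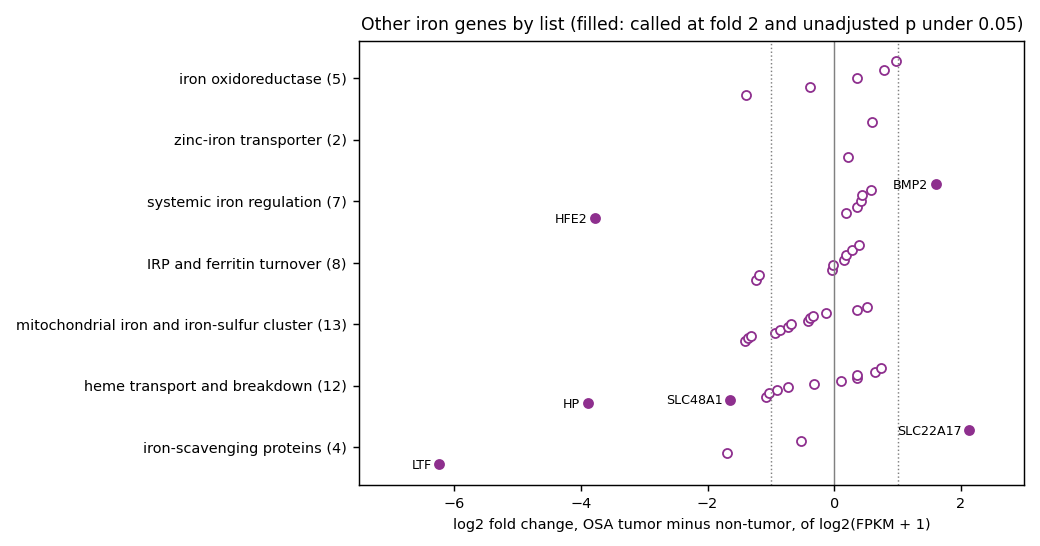
Log2 fold change of OSA tumor against non-tumor samples for 51 tested iron genes outside the 12 rows, by list (number of genes in brackets); filled points met both limits for a call, and dotted lines mark a 2-fold difference. LTF (-6.23), HP (-3.90) and HFE2 (-3.78) lie farthest below 0, and SLC22A17 (2.13) and BMP2 (1.60) farthest above. HFE2 passed the filter only through N3, N8 and N9.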

How the data were processed

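RNA of 7 canine samples was sequenced on an Illumina HiSeq platform from a stranded paired-end library. Reads were trimmed (Trim Galore) and mapped to CanFam3.1 (Tophat2) by the authors, who deposited FPKM per gene and sample from Cufflinks/Cuffdiff; versions, the scaling between libraries and the use of strand are not given in the sources used here. All 7 FPKM columns were used. From the second table, which holds the authors' own group comparison (group FPKM, fold changes, test statistics, p-values and q-values), only the gene intervals were taken, with 1 added to each start.

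Values were taken as log2(FPKM + 1), which understates the change of low genes, for the 13507 genes whose mean reached 1 FPKM, and tested by limma 3.58.1 in R 4.3.3 with a mean-variance trend, a step tested on simulated data. Following the study, calls needed a log2 fold change of 1 or more in size with p below 0.05, unadjusted. Benjamini-Hochberg adjusted p-values cover all genes tested. Exact permutation tests used the 35 splits into 4 and 3, in Python 3.11.15; figures were drawn with matplotlib 3.10.9.

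The members and lists were chosen with earlier results of these data known. Named were all rows of the 10 symbols, the called genes of the wider iron lists or else the gene with the largest change in a list, up to 3 markers per cell type by mean FPKM, and the 3 genes most alike each row (printed for 5 rows); markers at 0 were named after their values were seen. Alternatives were pseudocounts of 0.1 and 0.01, other filters and scalings, no trend, sample weights, sample number as a block, and each sample left out. No sequences were used here.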

Additional observations from a re-analysis of the deposited data

Results flagged for a closer look

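Of 20 items checked among the 4 non-tumor samples (the 12 iron gene rows, the 6 called genes of the wider lists and the ratios), 2 had a sample far from the other 3 by Dixon's criterion, which chance meets in about 1 in 20 groups. The FTH1 row on chromosome 18 (ENSCAFG00000015901) was at 4.53 on the log2(FPKM + 1) scale in N3, with a gap to the next sample of 0.969 of the group's range. This row passed the filter through N3 above all, so its flag is not independent of the filter. SLC22A17 was at 6.56 on this scale in N1, with a gap of 0.831 of the range.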

How the results depend on the processing

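With the depth known only relative to N1, the TFR2 values close to 0 were not ordered, and with 4 and 3 samples the exact test cannot reach 0.05. The number of the 12 rows called lower (1) was 4 with sample weights from arrayWeights and 0 with the sample number as a fixed replicate block. It ran from 0 (without T3) to 4 (without N1) with 1 sample left out, and was 3 without N9. Of all 13507 genes tested, 483 were called lower in the main fit, 1031 with arrayWeights and 93 with the fixed block. Without T3, N1 or N9, the genes called lower numbered 189, 1145 and 408 in turn. Both counts of 4 include TFR2, which passed the filter only through N3 and N8. With 1 FPKM required in 3 samples, TFR2 and the FTH1 row on chromosome 18 were not tested. In no alternative was a row called higher. Of the wider iron genes, the count called higher (2) was 1 without the filter, rescaled to the same sum, with quantile normalization and without the trend. It was 0 with the fixed replicate block, and 0 to 2 with 1 sample left out. Of all genes tested, 443 were called higher in the main fit, and 439 of 18759 without the filter. The number was 271 at the same sum, 519 with quantile normalization, 455 without the trend and 138 with the fixed block. The count called lower (4) was 11 with arrayWeights, 2 with the fixed replicate block (LTF and HP), and 2 (without N8, T3 or T10) to 10 (without N1). Without N8 or T10, 132 and 126 of all genes tested were called lower. The counts of 4, 11 and 10 include HFE2, which passed the filter only through N3, N8 and N9. Directions turned for the FTH1 row on chromosome 11 (0.010 with the fixed replicate block), the FTL row on chromosome 1 (0.61 with a pseudocount of 0.01), and the FTL row on chromosome 23 (0.075 rescaled to the same sum, 0.18 with quantile normalization). With 1 sample left out, the log2 fold change ran from -0.95 to 0.72 for FTH1 on chromosome 18, from -0.86 to 0.043 for FTL on chromosome 1, from -0.73 to 0.29 for FTL on chromosome 23 and from -0.81 to 0.30 for STEAP3, and the difference in the ratio of FTH1 to FTL from -0.62 to 0.10. The cause of these changes was not tested. SLC25A37 was called in 16 of 18 alternatives, and not with the fixed replicate block (-2.45) or without T3 (-1.94). The protocol calls the non-tumor tissue matched, and the numbers 1 and 3 are shared by a sample of each group, but nothing says that a number marks a dog. The deviations from the group means correlated over genes at 0.422 for N1 and T1 and 0.211 for N3 and T3. Pairs that do not share a number ran from -0.273 (N1 and T3) to 0.135 (N9 and T10). The fixed block rests on the pairs that share a number alone. With the number as a random block the count of rows called lower was 1.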
